A study of Homo sapiens with 4 samples.

Results

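Bidirectional coding promoters are short stretches of DNA flanked by a pair of protein-coding genes that are read away from each other. They were taken here as pairs of GENCODE 44 protein_coding genes on opposite strands of hg38, with the minus-strand gene on the left and the annotated 5' ends of both genes at most 1000 bp apart, on chromosomes 1 to 22 and X. There were 887 such pairs, made of 1710 of the 19970 coding genes on these chromosomes (8.56%), and the other 18260 coding genes served as the comparison. The region of a pair was the span between its 5' ends plus 500 bp on each side. The region of any other gene was 500 bp on each side of its 5' end. The 887 regions merged into 824 distinct stretches, and 63 genes belonged to more than 1 pair.

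CUT&RUN, in which an antibody directs a nuclease to cut out the DNA around a chromatin protein, was carried out for the metal response transcription factor MTF-1 in MDA-MB-231, a human breast cancer cell line. Control cells were serially passaged in ordinary medium. Cadmium cells were passaged in medium with cadmium sulfate that was raised to 10 µM, and so came from long exposure and selection rather than a short pulse. Each condition had 2 libraries, which were merged before peaks were called, so that there was 1 peak list per condition. The control list held 69299 peaks covering 130.4 Mb and the cadmium list held 60130 peaks covering 90.94 Mb. The lists give positions only. The depth of the libraries is unknown from them and they hold no replicate spread, and shares are given with 95% Wilson intervals and differences of shares with 95% Newcombe intervals. These intervals cover counting error over regions, which are not replicates of a condition and can share a peak, and no test was made.

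MTF-1 is a zinc finger protein that binds metal response elements and switches on metallothioneins and metal transporters when free zinc in the cell is raised. Bidirectional promoters are known for dense CpG islands, few TATA boxes and binding sites of ETS factors, NRF1 and YY1, and for housekeeping genes of DNA repair, the mitochondrion and protein folding. Whether both genes of a pair were transcribed from the shared region in these cells was not measured.

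The DNA between the 5' ends differed widely from pair to pair, and 4 examples are shown with the motif matches in capitals. TK1/AFMID, SARS2/MRPS12 and U2AF1L4/PSENEN were textbook pairs with a peak in both lists and were chosen for the number of kinds of motif they hold. SNCB/EIF4E1B had no peak in either list and was chosen after the values were seen. Each sequence is the plus strand of hg38, and the capitals mark matches on either strand to the SP1 letters GGGCGG, the CCAAT box, the TATA box spelled TATAAA, the forkhead letters ATAAACA, the NRF1 letters GCGCATGC and the metal response element core. That core is spelled TGCACNC, with TGCGCNC as the other spelling.
TK1/AFMID, chr17:78187234-78187357: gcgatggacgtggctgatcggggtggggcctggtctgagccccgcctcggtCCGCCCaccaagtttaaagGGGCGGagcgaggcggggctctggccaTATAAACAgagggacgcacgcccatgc
SARS2/MRPS12, chr19:38930764-38930943: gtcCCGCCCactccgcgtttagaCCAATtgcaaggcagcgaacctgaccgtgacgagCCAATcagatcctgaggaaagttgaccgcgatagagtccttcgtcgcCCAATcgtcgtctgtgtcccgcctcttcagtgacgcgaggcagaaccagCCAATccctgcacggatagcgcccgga
U2AF1L4/PSENEN, chr19:35745446-35745599: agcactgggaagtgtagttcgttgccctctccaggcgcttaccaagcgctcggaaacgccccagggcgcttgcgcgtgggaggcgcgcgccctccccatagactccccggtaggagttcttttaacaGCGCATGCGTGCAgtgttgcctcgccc
SNCB/EIF4E1B, chr5:176630557-176630617: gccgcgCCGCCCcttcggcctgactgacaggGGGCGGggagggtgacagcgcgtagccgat
SARS2/MRPS12 held 4 CCAAT boxes in 180 bp. In TK1/AFMID the TATA box and the forkhead match overlapped, and in U2AF1L4/PSENEN the NRF1 match overlapped the metal response element core. The 61 bp of SNCB/EIF4E1B held 2 SP1 matches, so this motif was present with and without a peak.

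A control peak touched 833 of the 887 pair regions (93.9%, interval 92.1 to 95.3), where 65.5% of all coding 5' ends and 62.9% of the other coding 5' ends had one. A cadmium peak touched 831 of them (93.7%, interval 91.9 to 95.1), beside 63.5% of all coding 5' ends and 60.7% of the others. Head-to-head pairs therefore lay above the other 5' ends by 31.0 percentage points in the control list (interval 29.1 to 32.6) and by 33.0 points in the cadmium list (interval 31.1 to 34.6). The shares were nearly the same in windows of equal width. With 500 bp on each side of every gene alike, 93.6% of the 1710 genes in pairs had a control peak and 93.5% a cadmium peak.

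The same regions carried peaks in both lists. Of the 887 pair regions, 830 were touched in both lists (93.6%, beside 62.2% of all coding 5' ends) and 53 in neither (5.98%, beside 33.2%). Only 3 had a control peak alone (0.338%, interval 0.115 to 0.990), beside 3.37% of all coding 5' ends. Only 1 had a cadmium peak alone (0.113%, interval 0.0199 to 0.636), beside 1.32%. A peak in a single list was thus found at 0.451% of pair regions and at 5.08% of other 5' ends, a difference of -4.63 points (interval -5.05 to -3.86). These small shares depended on counting every peak. With peaks of at least 1000 bp only, 3.49% of pair regions had a control peak alone and 1.35% a cadmium peak alone, and where 50% of the region had to be covered, 1.35% had a control peak alone. The limit of 1000 bp lies above the median width of the cadmium list (999 bp) and below that of the control list (1399 bp). It thus removes a larger share of the cadmium peaks. The matching shares of other 5' ends were not computed under these settings, so the size of the difference there is not known. Of the regions with a control peak, 0.360% of the pairs and 5.81% of the other 5' ends had none in the cadmium list.

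The presence of a gene on the opposite strand went with a peak also where it was not a head-to-head coding gene. Of 969 other coding 5' ends whose coding neighbour on the opposite strand starts within 1000 bp but overlaps them, 92.0% had a control peak and 91.7% a cadmium peak. Their intervals (90.1 to 93.5 and 89.8 to 93.3) overlapped those of the head-to-head pairs. Of 1602 coding 5' ends head to head with a non-coding gene, 84.0% and 82.5% had a peak, and of 1031 that overlap a non-coding 5' end, 82.7% and 81.6%. The 14658 coding 5' ends with no opposite 5' end within 1000 bp were lowest, at 57.3% and 54.7%. Peaks in the control list alone followed the reverse order, from 0.338% of head-to-head pairs and 0.722% of overlapping coding 5' ends to 1.81%, 1.94% and 4.17% of the last 3 classes.

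**Figure D1:**
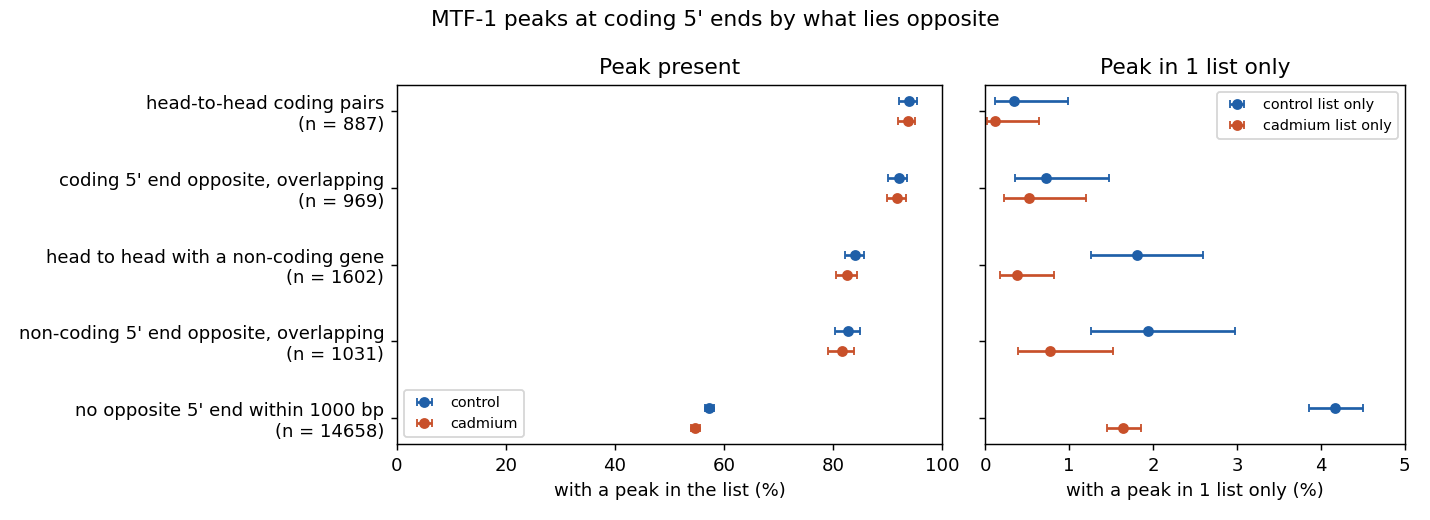
Share of regions with a peak in each list (left, percent) and with a peak in 1 list only (right, percent) for head-to-head coding pairs and 4 classes of other coding 5' ends. Points are shares and bars are 95% Wilson intervals, and the pairs sit at 93.9% and 93.7% on the left and below 1% on the right.

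Within the pairs, a single peak usually covered both starts. The starts were a median of 132 bp apart, and the spanning peaks had median widths of 2799 bp (control) and 2399 bp (cadmium). A peak over 1 start of a close pair thus mostly reaches the other by its width, and spanning is a description only. Both 5' ends lay under the same control peak in 819 pairs (92.3%) and under the same cadmium peak in 813 (91.7%), and 810 pairs were spanned in both lists (91.3%). A control peak covered the 5' end base of 63.2% of all coding genes and a cadmium peak that of 60.8%. In no pair did the 5' ends lie under 2 different peaks. Just 1 of the 2 starts was covered in 13 pairs in the control list and in 14 in the cadmium list. The whole region lay inside a peak in 72.9% of pairs in the control list and 68.4% in the cadmium list.

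The distance between the 5' ends had a median of 132 bp, with quartiles of 69 and 248 bp and a range from 1 to 995 bp. The share of regions with a control peak was 94.2% for the 342 pairs at most 100 bp apart and 90.8% for the 76 pairs more than 500 bp apart, with overlapping intervals (91.1 to 96.2 and 82.2 to 95.5). Spanning of both starts by 1 peak was less frequent in the widest class, at 78.9% in each list (interval 68.5 to 86.6). That interval lay below those of the closest pairs, 93.6% in control (90.5 to 95.7) and 93.3% in cadmium (90.1 to 95.5). A peak of a given width spans a wider gap less often, so this difference is a description only. Around the limit of 1000 bp, 14 of the 17 pairs within 100 bp below it had a peak in each list, and 8 of the 9 pairs within 100 bp above it, which were not members, did as well.

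**Figure D2:**
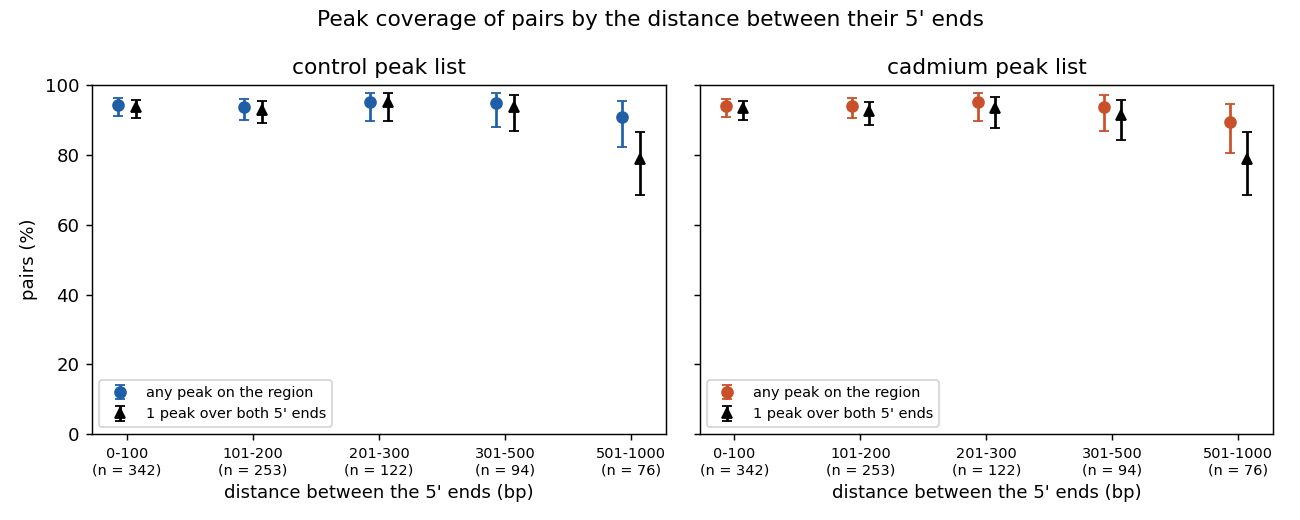
Share of head-to-head pairs (percent) with any peak on the region and with 1 peak over both 5' ends, by the distance between the 5' ends in bp, for the control list (left) and the cadmium list (right). Bars are 95% Wilson intervals, and spanning reaches 78.9% in the widest class while the closest pairs are at 93.6% and 93.3%.

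The centre of a peak spanning a pair lay a median of 298 bp from the midpoint of the pair in control and 252 bp in cadmium, in either direction. The signed offset had a median of -10.5 bp in control and -26.0 bp in cadmium, with negative values toward the minus-strand gene. Left and right of a pair follow the strand alone, so the signed median does not measure how tightly the peaks were centred. No such distance was computed at other genes. From the start of a gene in a pair, the control peak ran a median of 1394 bp upstream, across the partner, and 1199 bp downstream into the gene. At other genes under a control peak the order was opposite, with 1022 bp upstream and 1535 bp downstream. The cadmium peaks showed the same layout, with medians of 1188 bp upstream and 1020 bp downstream at genes in pairs and 819 and 1303 bp at other genes. A peak reached farther downstream than upstream at 42.1% of genes in pairs, at 61.0% of genes head to head with a non-coding gene and at 67.3% of genes with no opposite 5' end, in the control list. Where a single peak covers both starts of a pair, a gene's upstream extent equals its partner's downstream extent plus the distance between the starts. The genes of such a pair cannot both reach farther downstream than upstream. The order at pairs and their lower share thus follow from the arrangement, and the contrast with other genes is a description only.

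At 1000 bp upstream of the 5' end, a control peak lay over 66.6% of genes in pairs and 32.3% of other genes. At 1000 bp downstream, the shares were 57.0% and 46.3%. The cadmium list gave 58.3% and 25.1% upstream, and 48.4% and 40.3% downstream. The classes differed more upstream of the start, where the partner gene of a pair lies, than downstream of it. In a pair under 1 peak, most bases upstream of a gene are also downstream of its partner's start. The larger upstream gap therefore follows at least in part from the arrangement and is a description only.

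**Figure D3:**
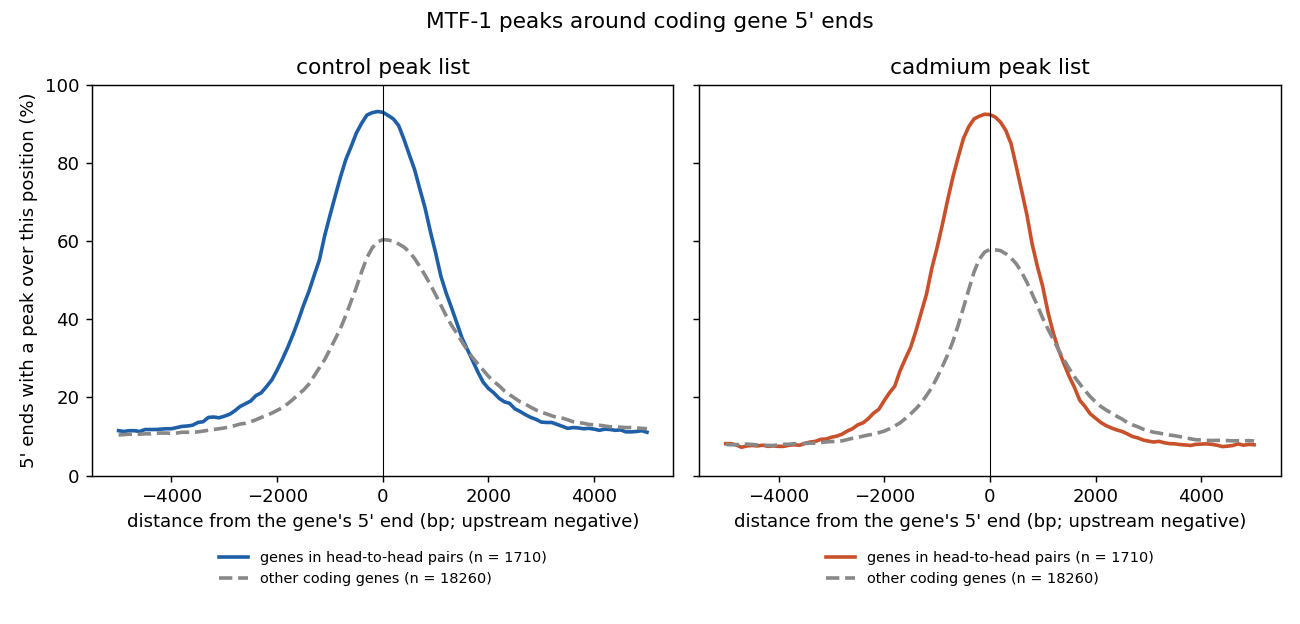
Share of coding gene 5' ends (percent) with a peak over each position from 5000 bp upstream to 5000 bp downstream, in steps of 100 bp, for 1710 genes in head-to-head pairs (solid) and 18260 other genes (dashed), in the control list (left) and the cadmium list (right). The solid curve is highest near the 5' end (93.0% at the 5' end in control, 92.4% in cadmium) and lies above the dashed curve at 1000 bp upstream, while the 2 curves cross downstream and, in the cadmium list, lie close together far upstream.

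Although the same pairs had peaks in both lists, the cadmium peaks were narrower. The peaks spanning a pair had a median width of 2799 bp in control (quartiles 1799 and 3999) and 2399 bp in cadmium (quartiles 1599 and 3199). Of the 810 pairs spanned in both lists, 484 had the wider peak in control (59.8%), 217 in cadmium (26.8%) and 109 had the same width (13.5%). The log2 ratio of cadmium to control width had a median of -0.19, beside -0.21 over 10291 other genes under a peak in both lists, of which 61.8% were wider in control. The pairs were therefore close to other genes in this measure. A peak narrower in cadmium by 2-fold or more was found at 95 pairs (11.7%, beside 13.3% of other genes) and the reverse at 13 (1.60%, beside 2.91%). Over whole lists the median peak width was 999 bp in cadmium and 1399 bp in control. Library depth is not given by the lists and its part in the widths was not tested.

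**Figure D4:**
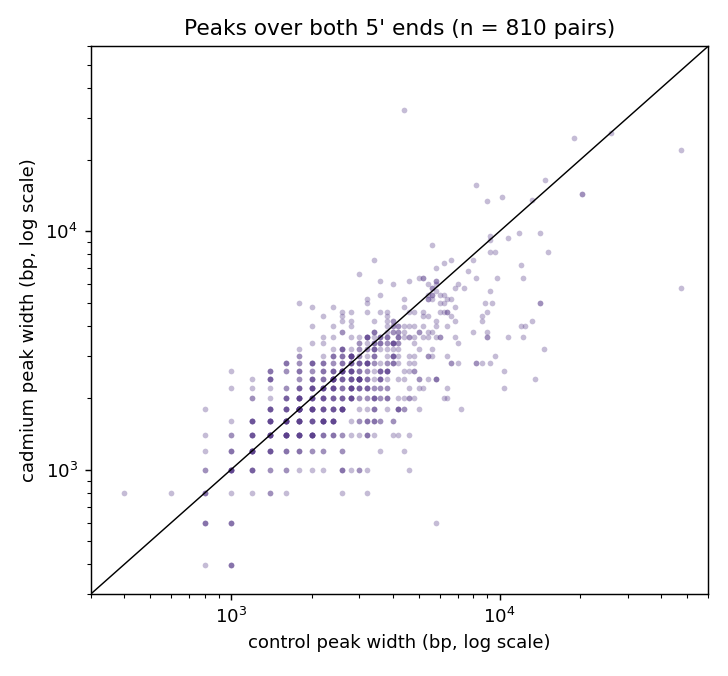
Width of the control peak (horizontal, bp, log scale) and of the cadmium peak (vertical, bp, log scale) over each of the 810 pairs whose 5' ends were both under 1 peak in each list. Points below the diagonal are the 484 pairs whose peak was wider in control, and points above it the 217 whose peak was wider in cadmium.

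The pairs with the largest change of width were named after the values were seen. PUS3/DDX25, a tRNA pseudouridine synthase paired with an RNA helicase, had a peak of 5799 bp in control and 599 bp in cadmium (log2 ratio -3.28). PIDD1/RPLP2, a p53-induced death domain protein paired with a protein of the ribosomal stalk, went from 47199 to 5799 bp (log2 ratio -3.02). The same 47199 bp control peak also held the pair POLR2L/TSPAN4, which in cadmium lay under a separate peak of 21999 bp. In the other direction, ARFRP1/ENSG00000273154 went from 4399 to 32399 bp (log2 ratio 2.88). HEATR5B/GPATCH11 had 999 and 2599 bp (log2 ratio 1.38). In each of these pairs both starts were under a peak in both lists, so the ends of the peak differed and not its presence. RHOF/SETD1B, a small GTPase paired with a histone methyltransferase, was under wide peaks of 25999 and 25799 bp, and SOX18/TCEA2 under peaks of 18999 and 24599 bp.

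The 4 regions with a peak in 1 list were each covered only in part. PRAC1/PRAC2, a pair of small nuclear proteins of the prostate and distal gut, lay under a control peak of 3399 bp (chr17:48722201-48725599) that covered 89.0% of the region, and the nearest cadmium peak was 115 bp outside it. COL4A6/COL4A5, which encode chains of type IV collagen in basement membranes, had a control peak of 799 bp (chrX:108439401-108440199) over 59.5% of the region and over both starts. There the nearest cadmium peak was 124997 bp away. KCTD19/LRRC36 had a control peak of 399 bp (chr16:67326601-67326999) over 38.4% of the region. TRPM5/KCNQ1, a taste cell cation channel paired with a cardiac and epithelial potassium channel, had a cadmium peak of 599 bp that covered 48.6% of the region and the start of KCNQ1 but not that of TRPM5, 87 bp from the peak. The nearest control peak was 17846 bp from that region. With positions alone it cannot be told whether these peaks were just above and just below the caller's threshold.

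In some pairs a peak covered the start of only 1 of the genes. In RBP5/CLSTN3 the peaks covered the start of CLSTN3, a calsyntenin, and ended 512 bp (control) and 712 bp (cadmium) from that of the retinol binding protein RBP5. In TEX14/RAD51C they covered RAD51C, a homologous recombination gene, and stayed 146 bp from the start of the germ cell gene TEX14 in both lists. In EHHADH/MAP3K13 they covered the kinase gene MAP3K13 and stayed 611 bp (control) and 391 bp (cadmium) from the start of the peroxisomal enzyme gene EHHADH. This was the only region touched by more than 1 peak of a list, with 2 cadmium peaks. In MYEF2/SLC12A1 the kidney cotransporter gene SLC12A1 was 39 bp outside the peak in both lists, although the 5' ends are only 85 bp apart. These pairs were named after the values were seen, and no measure of expression entered.

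The covered starts were not always the same in the lists, as in the following pairs, named after the values were seen. Both starts lay under 1 control peak but not under 1 cadmium peak in 9 pairs, and the reverse held in 3. In KRTCAP2/TRIM46 the control peak of 5599 bp covered both starts, while the cadmium peak of 999 bp covered KRTCAP2, a subunit of the oligosaccharyltransferase, and ended 188 bp from TRIM46. In TSSK6/NDUFA13 a control peak of 3799 bp covered both, and a cadmium peak of 1199 bp covered NDUFA13, of respiratory complex I, and ended 53 bp from the testis kinase gene TSSK6. VAT1/RND2 and NFKBID/HCST were like them, with RND2 32 bp and HCST 130 bp outside the cadmium peak. In HRAS/LRRC56 the control peak of 7999 bp covered both starts, and the cadmium peak of 6199 bp touched the region but neither start. In the reverse direction, NFE2/COPZ1 had a control peak that stopped 3 bp from COPZ1, a coatomer subunit. Several of these gaps are shorter than the 200 bp steps in which the peaks were placed.

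Of 24 textbook bidirectional pairs, 12 met the rule and 11 of these had peaks in both lists. The exception was COL4A6/COL4A5. In the related pair COL4A4/COL4A3, also of type IV collagen, peaks of 1999 bp (control) and 1799 bp (cadmium) covered the whole region. NPAT/ATM, a coactivator of histone genes paired with the DNA damage kinase, had peaks of 3999 and 2799 bp. PPAT/PAICS, which encode enzymes of purine synthesis, had 4199 and 3399 bp, and TK1/AFMID, with thymidine kinase, had 5599 and 3799 bp. SARS2/MRPS12, a mitochondrial seryl-tRNA synthetase and a mitochondrial ribosomal protein, had 2399 and 1599 bp. In 9 of these 11 pairs the control peak was the wider, and in PURG/WRN (1599 bp) and U2AF1L4/PSENEN (2399 bp) the widths were equal in both lists. The 12 textbook pairs that did not meet the rule had annotated 5' ends that overlap, 6 of them by at most 1000 bp, such as HARS1/HARS2. Each of the 12 had peaks in both lists. In HSPD1/HSPE1, KBTBD4/NDUFS3 and TAP1/PSMB9 the overlap was far longer, and 2 peaks of each list were counted. These 12 are therefore not a like-for-like comparison with the pairs that met the rule.

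Genes of DNA repair and replication were frequent in head-to-head pairs. Of 140 such genes, 44 lay in pairs (31.4%, beside 8.56% of all coding genes), and the 44 pairs that hold them were touched by a peak in both lists, beside 830 of 887 over all pairs (93.6%). In RAD51D/FNDC8 the cadmium peak covered 34.6% of the region and neither start. Their control peaks ranged from 999 to 13599 bp with a median of 2399 bp, and their cadmium peaks from 799 to 8799 bp with a median of 1999 bp. PRKDC/MCM4, a repair kinase and a replicative helicase subunit with starts 7 bp apart, had peaks of 3799 and 3599 bp. PCNA/CDS2, with the sliding clamp of replication, had 4199 and 3599 bp. XPO5/POLH, with a translesion polymerase, had 3799 and 1999 bp, and RHBDF1/MPG, with a DNA glycosylase, had 5599 and 8799 bp. In 25 of the 44 pairs the control peak was wider and in 11 the cadmium peak.

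Mitochondrial genes gave a like picture. Of 78 mitochondrial ribosomal protein genes 17 lay in pairs (21.8%, beside 8.56% of all coding genes), and the 18 pairs that hold them had peaks in both lists, beside 93.6% of all pairs. MRPL46/MRPS11, in which both genes encode mitochondrial ribosomal proteins, had a peak of 999 bp in control and 2199 bp in cadmium, while SLC7A7/MRPL52 had 2199 and 999 bp. Of 97 genes of the respiratory chain 24 lay in pairs (24.7%), and 24 of their 25 pairs were in both lists, near the share over all pairs. TIMM8B/SDHD, with a subunit of succinate dehydrogenase, had peaks of 8199 and 2799 bp. The pair outside both lists was ATP5MJ/TDRD9, where the canonical transcript of ATP5MJ starts 6740 bp from the annotated gene 5' end and had a peak in both lists.

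The other lists were at or near the share of all pairs with peaks in both lists (93.6%). The chaperone list had 15 pairs and the proteasome list 6, and peaks of both lists lay on each of them. HSPA1L/HSPA1A, with the stress-inducible heat shock protein, had peaks of 1999 bp (control) and 2199 bp (cadmium), and ATPSCKMT/CCT5, with a chaperonin subunit, had 4999 and 2199 bp. PSMA7/SS18L1, with a proteasome core subunit, had 13199 and 13599 bp. The 3 pairs with an aminoacyl-tRNA synthetase were also in both lists. So were 28 of the 30 pairs with a zinc finger gene, the exceptions being ZNF597/NAA60 and SATL1/ZNF711. Clustered protocadherins, 53 genes, gave no head-to-head pair.

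Metal handling genes, the known target field of MTF-1, lay in pairs about as often as other genes. Of 44 such genes 3 lay in pairs (6.82%, beside 8.56% of all coding genes). Each of these pairs had a peak in both lists, as did 93.6% of all pairs. Of the 41 outside pairs, 28 had a peak in both lists and 13 in neither, beside 59.2% and 35.7% of all coding 5' ends outside pairs. EXTL2/SLC30A7, with a zinc transporter of the secretory pathway, had peaks of 2799 bp (control) and 4199 bp (cadmium). ATP7B/ALG11, with the copper pump of the liver, had 2399 and 1799 bp, and SLC39A6/ELP2, with a zinc importer, had 3599 and 2399 bp. The change of width thus differed in direction among the 3.

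Replication-dependent histone genes, which encode the histones made in S phase and often lie as divergent H2A and H2B pairs, differed from these lists. Of 69 histone genes 27 lay in pairs (39.1%), and of their 15 pairs 9 had peaks in both lists and 6 in neither, beside 53 of all 887 pairs (5.98%) in neither. The 6 were 5 distinct regions, since H2AC7/H2BC7 and ENSG00000282988/H2BC7 have the same 5' ends. H2BC21/H2AC20 had peaks of 6399 and 4599 bp, and H2BC11/H2AC11 a peak of 3399 bp in each list. H2AC1/H2BC1, a testis histone pair, had none within 182923 bp in control and 65062 bp in cadmium. H2AC7/H2BC7, H2BC8/H2AC8, H3C7/H2BC9 and H2AC25/H2BC26 also had none. Many histone genes resemble each other, and how reads that fit several of them were placed is not given in the sources used here. An absent peak at a histone pair is therefore uncertain. The similarity of the empty pairs to other histone genes and its part in the absent peaks were not tested. Of 42 histone genes outside pairs, 22 had a peak in both lists, 1 in a single list and 19 in neither. Over all coding 5' ends outside pairs these shares were 59.2%, 5.08% and 35.7%.

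The 53 pair regions without a peak were 51 distinct stretches and lay a median of 12346 bp from the nearest control peak, and 22 of them had a peak of either list within 5000 bp. Beside histone pairs, those with the closest 5' ends included PLCZ1/CAPZA3, of the sperm head, and CSAG1/MAGEA12, CSAG2/MAGEA2B and MAGEA2/CSAG3 on the X chromosome. The X chromosome pairs belong to the same gene families, so the doubt stated for the histones may apply to them. How alike their sequences are was not measured. In 17 of the 53, a peak lay within 500 bp of the start of the canonical transcript of a gene, away from the annotated gene 5' end. In 16 of them this held in both lists. The canonical transcript of MTRR, of methionine metabolism, in CFAP90/MTRR starts 17962 bp from the annotated gene 5' end, and that of GINS3, of the replicative helicase, in PRSS54/GINS3 starts 97391 bp from it. Both canonical starts had a peak within 500 bp in both lists. For these pairs the empty region lay at an alternative 5' end.

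The sequence around the pairs differed from that around other starts. In windows of 500 bp on each side of the pair midpoint or the 5' end, the ratio of observed to expected CpG had a median of 0.784 in pairs and 0.668 at other 5' ends, and GC content a median of 61.7% and 58.8%. Among windows with a peak in both lists the ratios were closer, at 0.788 and 0.767. The pair regions without a peak had a median of 0.689. CpG density thus moved with the presence of a peak in both classes.

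When all coding 5' ends were divided into quartiles of this ratio (bounds 0.329, 0.688 and 0.819), genes in pairs had the higher share in each quartile and the gap narrowed in the CpG-rich ones. In the second quartile 89.5% of 333 genes in pairs and 61.4% of 4659 others had a control peak, a difference of 28.1 points (interval 24.1 to 31.3). In the highest quartile the shares were 97.3% of 633 and 89.0% of 4360, a difference of 8.32 points (interval 6.51 to 9.71). The cadmium list gave differences of 29.9 points (25.8 to 33.2) and 8.94 points (7.12 to 10.3) in these quartiles. Only 44 genes in pairs were in the lowest quartile, where 22 had a control peak and 23 a cadmium peak (52.3%), beside shares of 21.4% and 17.9% of the others. A peak in 1 list only was found at 9 genes in pairs in all, 8 of them in the second quartile and 1 in the lowest, and at 0 of 700 and 0 of 633 in the upper quartiles, which allows shares of up to 0.546% and 0.603% by the Wilson interval. The corresponding shares of other genes in the upper quartiles were 2.49% and 1.77%.

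**Figure D5:**
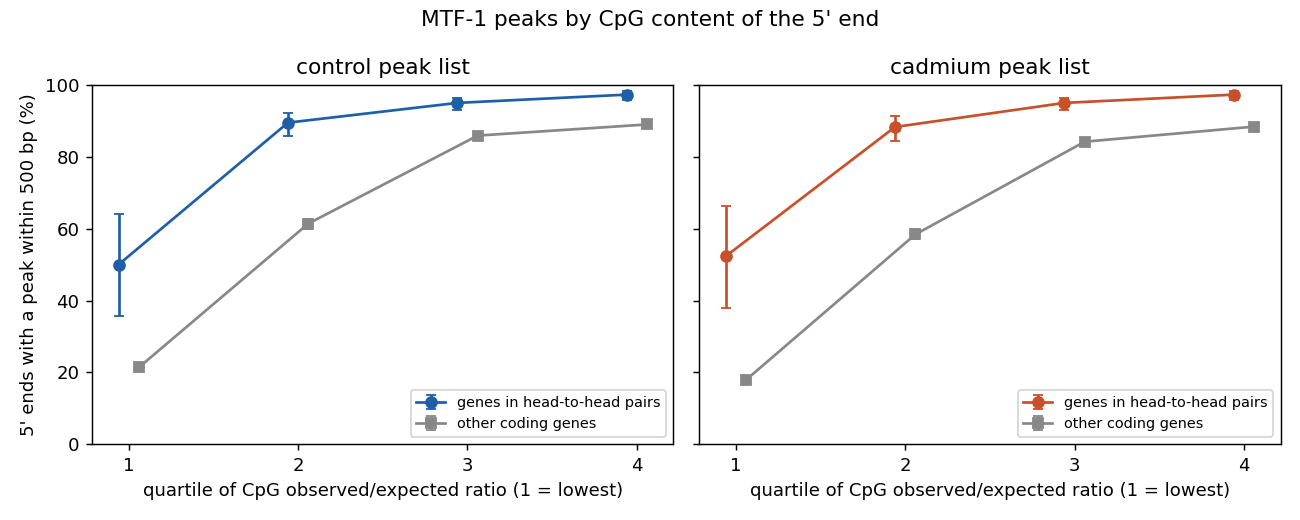
Share of coding gene 5' ends (percent) with a peak within 500 bp, by quartile of the CpG observed/expected ratio of the window 500 bp on each side of the 5' end, for genes in head-to-head pairs (circles) and other coding genes (squares), in the control list (left) and the cadmium list (right). Bars are 95% Wilson intervals, and in the control list the gap is 28.1 points in the second quartile and 8.32 points in the highest.

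Motifs were counted as exact letters on either strand in the same windows, where a pair window can hold the core promoters of both genes. ETS letters (CCGGAAGT) were present in 18.5% of pair windows, beside 6.31% of other windows and 7.30% of all coding 5' ends. NRF1 letters (GCGCATGC) were present in 12.1%, 5.51% and 6.0%, and YY1 letters (AAGATGGC) in 11.6%, 6.69% and 7.07%. At least 1 of these 3 motifs was found in 36.0% of pair windows, 16.8% of others and 18.3% of all. SP1 letters (GGGCGG) were present in 91.7%, 70.3% and 72.0%. The TATA box (TATAAA) was less frequent in pairs, at 17.2% beside 27.9% of others and 26.9% of all, while the CCAAT box was close, at 67.1%, 65.6% and 65.7%.

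The difference in ETS letters was also present among windows with a peak in both lists, at 19.6% of pairs and 9.80% of others, as was that in NRF1 letters, at 12.8% and 7.62%. Among these windows the difference was smaller for SP1 letters, at 93.5% of pairs and 88.4% of others. For the TATA box the shares were 16.6% and 18.9%, with overlapping intervals (14.2 to 19.3 and 18.2 to 19.7). Of the 164 pair windows with ETS letters, 163 were at regions with a peak in both lists (99.4%), and of the 107 with NRF1 letters, 106 were (99.1%). At other 5' ends with these letters the shares were 91.9% and 81.8%, beside 57.0% and 57.9% of those without them. Pair windows without ETS letters still had a peak in both lists in 92.3% of cases.

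The metal response element core (TGCACNC, or in its other spelling TGCGCNC), the known recognition element of MTF-1, was present in 71.8% of pair windows, 67.9% of others and 68.2% of all coding 5' ends. It was found in 72.7% of pair windows with a peak in both lists (interval 69.5 to 75.6). Of the 10817 other windows with a peak in both lists, 8115 held it (75%, interval 74.2 to 75.8), and the intervals overlapped. It was found in 32 of the 53 pair windows without a peak (60.4%, interval 46.9 to 72.4). Of pair windows with the core, 94.7% had a peak in both lists, and of those without it 90.8%. At other 5' ends the gap was wider, with shares of 65.4% with the core and 46.1% without it. The letters are short and common, and a match is a description and not a binding site. AP-1 letters (TGACTCA) were present in 7.78% of pair windows, 11.1% of others and 10.8% of all, and in 9 of the 53 pair windows with no peak (17.0%, interval 9.20 to 29.2). Forkhead letters (ATAAACA, and the spellings with G as the first letter or T in place of the C) were present in 21.9%, 32.3% and 31.5%.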

How the data were processed

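MTF-1 CUT&RUN was analysed in 4 libraries of MDA-MB-231 cells, 2 control and 2 cadmium. Per the study's methods, reads were cleared of adaptor sequence, mapped with Bowtie2 against hg38 and pooled over both libraries of a condition, and Epic2 called the peaks at its default settings. The submitters' processing notes name SAMtools 1.8 and SICER 0.0.50. No input or IgG library is named for the peak calling. The deposited lists hold a chromosome, a start, an end and a constant last column, in base pairs on a grid of 200 bp, and no count, signal or score was used here, so that wide and narrow peaks weigh alike.

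Gene 5' ends were taken from GENCODE 44 and any shared base counted as overlap. Windows were read from hg38 with pysam 0.24.0 in Python 3.11.15 and motifs searched as exact letters on both strands. The pair search and the overlap measures were checked on made-up input against a direct count. No test was made, because each condition has 1 list. Named pairs were textbook pairs, pairs in 1 list, the 8 closest pairs in neither list and those under the 3 widest peaks of each list, and any other is said to be chosen after its values were seen or is an example from a gene list. The members, gene lists and rules were chosen with earlier results of these data known. The alternatives tried were distinct regions, no flank, equal widths, 50% coverage, peaks of at least 1000 bp, 5' ends at most 300 bp apart, canonical starts, no readthrough or unnamed genes, and 2 other comparison sets. After the data were seen, overlapping 5' ends and windows at the pair midpoint were added. A few pairs of the lists above are not reported here.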

Additional observations from a re-analysis of the deposited data

How the results depend on the processing

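Of 64 values recomputed under the alternatives, 49 stayed within the interval of the reported value and 15 lay outside it. None of the differences between pairs and other 5' ends changed sign, while the shares among these values cannot do so. Without flanks the difference between pairs and other 5' ends was 33.4 points in control and 35.3 in cadmium, and with 50% of the region covered it was 33.2 and 34.8 points, with a control peak alone at 1.35% of pairs. With peaks of at least 1000 bp, 89.5% of pairs had a control peak and 87.4% a cadmium peak. The shares in 1 list alone were then 3.49% (control) and 1.35% (cadmium), so the near absence of list-specific pairs depends on counting narrow peaks. This limit removes a larger share of the cadmium list, whose median width is 999 bp beside 1399 bp in control. The shares of other 5' ends in 1 list alone were not computed under the alternatives. From canonical transcript starts, 984 pairs had shares of 96.3% and 96.2%. Against 5' ends with no opposite 5' end the difference was 36.6 points in control and 38.9 in cadmium. Against 5' ends head to head with a non-coding gene it was 9.95 points (interval 7.49 to 12.3) and 11.2 (8.63 to 13.6). Counting overlapping 5' ends as pairs and using midpoint windows, both chosen after seeing the data, left each value within its interval. No paired analysis was possible because the peak lists used here were called on merged replicates, and no replicate was left out for the same reason. Depth, peak height and agreement between libraries cannot be read from these lists and were not analysed here.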
